A study of Mus musculus with 30 samples.

Results

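Apoe, Trem2, Tyrobp, Lpl, Spp1, Cst7, Gpnmb, Clec7a, Fabp5 and Lgals3 are genes of the lipid-handling macrophage and of the disease-associated microglia. They were chosen by name, and all 10 were found among the 45317 genes listed in both count tables. Their RNA was followed over 8 sorted myeloid populations of 4 mice that carried a brain tumor. Each mouse was of the strain C57BL6.CCR2RFP/WT, aged 12 to 18 weeks, so that every group had one Ccr2 allele replaced by a red fluorescent protein. GL261.BpalmGFP cells, a mouse glioma line with membrane-bound GFP, had been implanted in the striatum of every animal, and no group came from a tumor-free mouse.

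The blood gave Ly6Chigh and Ly6Clow monocytes, sorted on CD115 and Ly6C. The brain gave glioma monocytes, CCR2high macrophages and CCR2low macrophages, each sorted into cells with tumor-derived GFP (GFPpos) and without it (GFPneg). The hosts kept their own microglia, and the brain gates took CD11b high CD45 high cells. Blood cells went through no brain dissociation, so compartment and handling cannot be told apart in any comparison of brain with blood.

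TREM2 is a receptor for lipids, lipoproteins and cell debris, and it signals through the adaptor DAP12, the product of Tyrobp. In the diseased brain, microglia that take up myelin, plaque or dead cells switch on genes of lipid transport, lysosomes and phagocytosis, and this state is known to depend in part on TREM2. Macrophages of fat tissue, atherosclerotic vessels and tumors are known for a related set of genes.

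The 28 replicates, each 1 population of 1 mouse, held 1553616 to 5689644 counts on genes. One library of the Ly6Clow monocytes of mouse 23 had reads on too few genes (3460 with 5 or more) and was left out. A second library of the same cells replaced it, with 6475 such genes and 13.3% of its counts on spike-in RNA. Blood monocytes had no count of the microglia genes Sall1, Siglech or Slc2a5. Their summed microglia markers lay between 428 and 1166 CPM (read counts scaled to library size), mostly Cx3cr1, which monocytes share. In the brain the sum ran from 2128 to 11092 CPM. T and NK cell markers summed to 914 to 1504 CPM in Ly6Clow and 19.3 to 175 CPM in Ly6Chigh monocytes. In bulk RNA of sorted cells, fewer cells of a type and less RNA per cell cannot be told apart.

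Counts per kilobase of exon, scaled to the same sum over all genes in every replicate, put the 10 genes on 1 scale. On this scale Tyrobp was the most abundant of them in both blood populations, at 9468 ± 1130.2 (SD, n = 3) in Ly6Chigh and 8986 ± 322 (SD, n = 3) in Ly6Clow monocytes. Apoe, the lipoprotein component that carries cholesterol between cells, led in 6 of 6 brain populations, from 5286 in GFPpos glioma monocytes to 10339.7 in GFPpos CCR2low macrophages. Lpl stood last in each of those 6, at 7.50 to 15.9. Spp1 and Gpnmb were the bottom genes of the blood, with 3.04 and 0.247 in Ly6Chigh monocytes. In GFPneg CCR2low macrophages Spp1 was the third, at 2045. These levels, plotted by population, depended on the exon length used for each gene. With the longest annotated transcript in place of all exons, the order of the 10 genes changed in 4 of the 8 populations, while Apoe stayed first in the same 6.

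**Figure D1:**
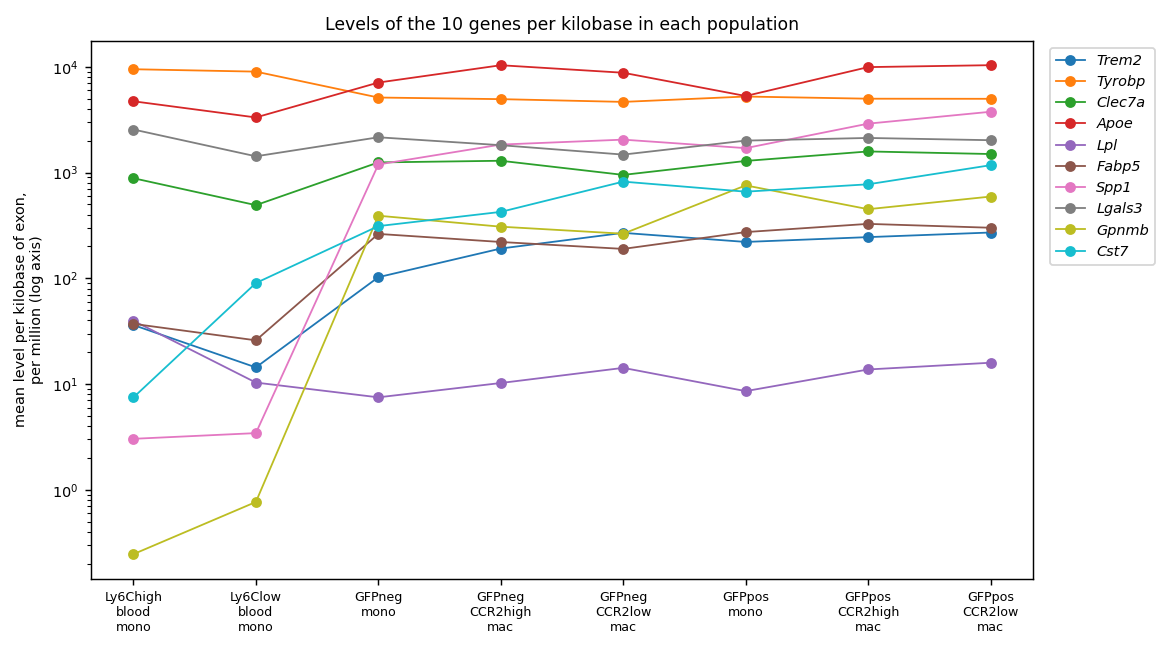
Mean level per kilobase of exon, scaled to the same sum in every replicate, of the 10 genes (log axis) in the 8 populations, with 3 or 4 mice in each. A line joins the means of 1 gene and marks no order of the populations. Tyrobp is at the top in blood and Apoe in the brain, and Spp1 and Gpnmb climb from the bottom of the blood.

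In the edgeR quasi-likelihood test, with Benjamini-Hochberg adjustment over the 11566 genes tested and a call at adjusted p under 0.05, 5 genes were higher in all 6 comparisons of GFPneg brain cells with blood monocytes. They were Trem2, Fabp5, Spp1, Gpnmb and Cst7. Single comparisons called 11.1% to 15% of all genes higher, and the share of all genes called higher in all 6 was not counted. All 10 genes passed the filter on low counts.

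Against Ly6Chigh monocytes, those same 5 of 10 were the genes called higher in each brain population. The share of all genes called higher was 11.1% in GFPneg glioma monocytes, 12.7% in GFPneg CCR2high and 14.1% in GFPneg CCR2low macrophages. None of the 10 was called lower in glioma monocytes, where 2.68% of all genes were. There Tyrobp and Lpl had lower levels at unadjusted p = 0.0445 and 0.00791, and DESeq2 called Lpl. Tyrobp was called lower in CCR2high macrophages, with 5.14% of all genes. Tyrobp and Lgals3 were called lower in CCR2low macrophages, with 6.09% of all genes.

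Against Ly6Clow monocytes, 7 of 10 were called higher in each brain population. The shares of all genes called higher were 13% in glioma monocytes, 14.7% in CCR2high and 15% in CCR2low macrophages. Clec7a joined the 5 genes in every case. Lgals3 was the seventh in glioma monocytes, and Apoe was the seventh in the macrophages. No member was called lower in glioma monocytes, where 5.51% of all genes were and Tyrobp had an unadjusted p of 0.018. Tyrobp was called lower in CCR2high and in CCR2low macrophages, with 8.39% and 8.35% of all genes, a direction that turned under spike-in scaling.

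The median fitted log2 difference of the 10 genes lay between 1.37 and 2.11 in the 6 comparisons, and that of all genes tested between 0.12 and 0.26. The comparisons share their blood and their brain replicates. Scaling to the spike-in RNAs moved the median of all genes against Ly6Clow monocytes to 1.70 in glioma monocytes, 1.87 in CCR2high and 1.74 in CCR2low macrophages. Against Ly6Chigh monocytes that scaling called 3, 3 and 4 of the 10 genes, all higher, and Spp1, Gpnmb and Cst7 were among them in each. Of the 11566 genes tested it called 390, 467 and 504 higher, fewer than the 1286, 1466 and 1636 under TMM scaling.

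**Figure D2:**
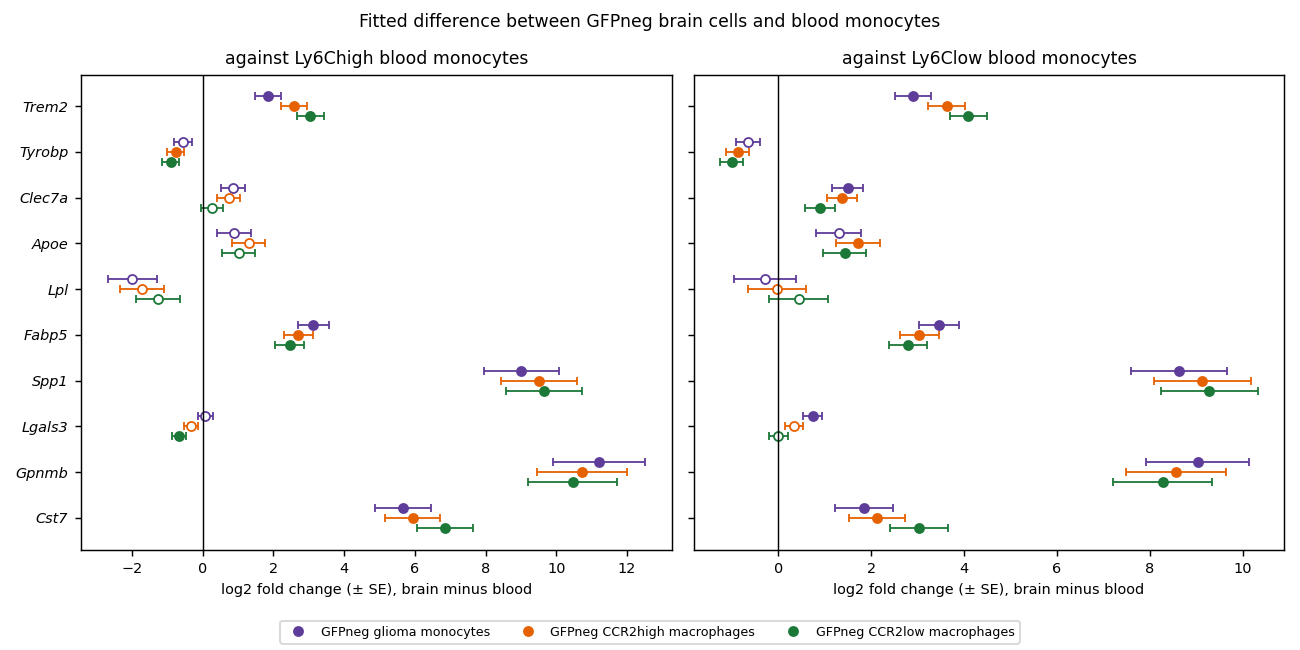
Fitted log2 fold change of the 10 genes (points, with SE bars) in 3 GFPneg brain populations against Ly6Chigh (left) and Ly6Clow (right) blood monocytes; filled points passed the edgeR test. Spp1 and Gpnmb lie above 8 on the log2 scale in all 6 comparisons, where their place depends on a handful of counts in blood, and Tyrobp lies below 0 in all 6 under TMM scaling but above 0 in each population against Ly6Clow monocytes under spike-in scaling.

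With the mouse as a block in the fit, which pairs populations of the same animal, further genes passed. Clec7a rose and Lpl fell in glioma monocytes against Ly6Chigh monocytes, at 0.91 and -2.23 on the log2 scale, with 12.3% of all genes called higher and 3.75% lower. In CCR2high macrophages Apoe at 1.20 and Clec7a at 0.79 were higher and Lpl at -2.18 was lower, with 14.5% and 6.74% of all genes. Lpl at -1.65 was also called lower in CCR2low macrophages, with 7.50% of all genes lower. Against Ly6Clow monocytes the block added Apoe in glioma monocytes at 1.17, with 13.9% of all genes called higher. It removed no call of these 6 comparisons.

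Fitting each pair of populations by itself, with fewer samples, moved more calls. The shares of all genes called in these fits are not given, so these moves cannot be set against those of genes in general. In glioma monocytes against Ly6Clow monocytes Trem2 (2.88), Clec7a (1.47), Lgals3 (0.72) and Cst7 (1.83) no longer passed. In CCR2high macrophages against Ly6Clow monocytes Tyrobp (-0.79), Apoe (1.79) and Cst7 (2.21) were lost, and in CCR2low macrophages Clec7a (0.86) and Apoe (1.395). Against Ly6Chigh monocytes the call of Lgals3 in CCR2low macrophages (-0.67) was lost. Such fits added Clec7a (0.87) and Lpl (-1.99) in glioma monocytes, Clec7a (0.73) and Apoe (1.31) in CCR2high and Apoe (1.02) in CCR2low macrophages, all against Ly6Chigh monocytes.

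The 250 bases before the start of the genes that rose in all 6 comparisons are shown because these genes were called in the same direction. RefSeq promoter entries (build GRCm38.p6) were found for 7 of the 10 genes and for 4 of these 5, with none for Fabp5. Capitals mark matches, on either strand, to the PU.1 motif GAGGAAG, to the AP-1 motif TGANTCA and to the TATA box TATAAA. The E-box CACGTG and the M-box CATGTG, motifs of lysosomal transcription factors, were searched too. Trem2 lies on the plus strand of chromosome 17 and its window is chr17:48346151-48346400. The window of Spp1 is chr5:104434861-104435110, that of Gpnmb chr6:49036268-49036517 and that of Cst7 chr2:150570165-150570414, all on the plus strand.
Trem2: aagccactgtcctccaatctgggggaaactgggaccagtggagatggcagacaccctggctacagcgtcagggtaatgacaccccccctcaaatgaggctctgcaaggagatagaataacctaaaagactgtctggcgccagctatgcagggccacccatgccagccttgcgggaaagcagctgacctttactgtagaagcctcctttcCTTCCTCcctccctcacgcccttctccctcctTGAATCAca
Spp1: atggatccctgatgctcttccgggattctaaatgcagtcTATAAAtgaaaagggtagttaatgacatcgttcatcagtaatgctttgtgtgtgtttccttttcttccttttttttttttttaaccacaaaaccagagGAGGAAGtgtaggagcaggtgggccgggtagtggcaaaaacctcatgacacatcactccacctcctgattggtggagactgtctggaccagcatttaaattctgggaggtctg
Gpnmb: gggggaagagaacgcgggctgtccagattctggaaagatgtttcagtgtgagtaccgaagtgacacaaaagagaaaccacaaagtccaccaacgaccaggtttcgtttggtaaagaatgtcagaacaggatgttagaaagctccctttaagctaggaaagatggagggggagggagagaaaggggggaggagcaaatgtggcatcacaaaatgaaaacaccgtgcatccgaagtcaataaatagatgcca
Cst7: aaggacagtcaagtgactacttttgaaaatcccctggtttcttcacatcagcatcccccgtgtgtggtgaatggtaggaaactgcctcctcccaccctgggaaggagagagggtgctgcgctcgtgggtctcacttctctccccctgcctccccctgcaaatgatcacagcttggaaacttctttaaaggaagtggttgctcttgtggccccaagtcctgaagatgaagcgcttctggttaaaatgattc

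The Trem2 window held a PU.1 match 41 to 35 bases before the start and an AP-1 match at 9 to 3 bases. The Spp1 window shown held a PU.1 match at 113 to 107 bases and a TATA box match at 211 to 206 bases before the RefSeq start. That start is 7 bases from the start in the annotation of the gene model used for lengths. Another RefSeq entry of Spp1, with the window chr5:104435942-104436191, is not shown and held no match to the motifs searched. The windows of Gpnmb and Cst7 held no match either. Of all 32851 promoter windows of this length, 10.6% held the PU.1 letters, 6.75% the AP-1 letters, 12.4% the TATA letters, 6.02% the E-box and 12.2% the M-box. A match describes the letters and not a bound site.

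The values of each replicate follow by role. Normalized read counts are CPM after TMM scaling, and values are in the order of the mouse numbers: 22, 23 and 24 for blood, 22, 24 and 26 for glioma monocytes, and 22, 23, 24 and 26 for macrophages.

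**Figure D3:**
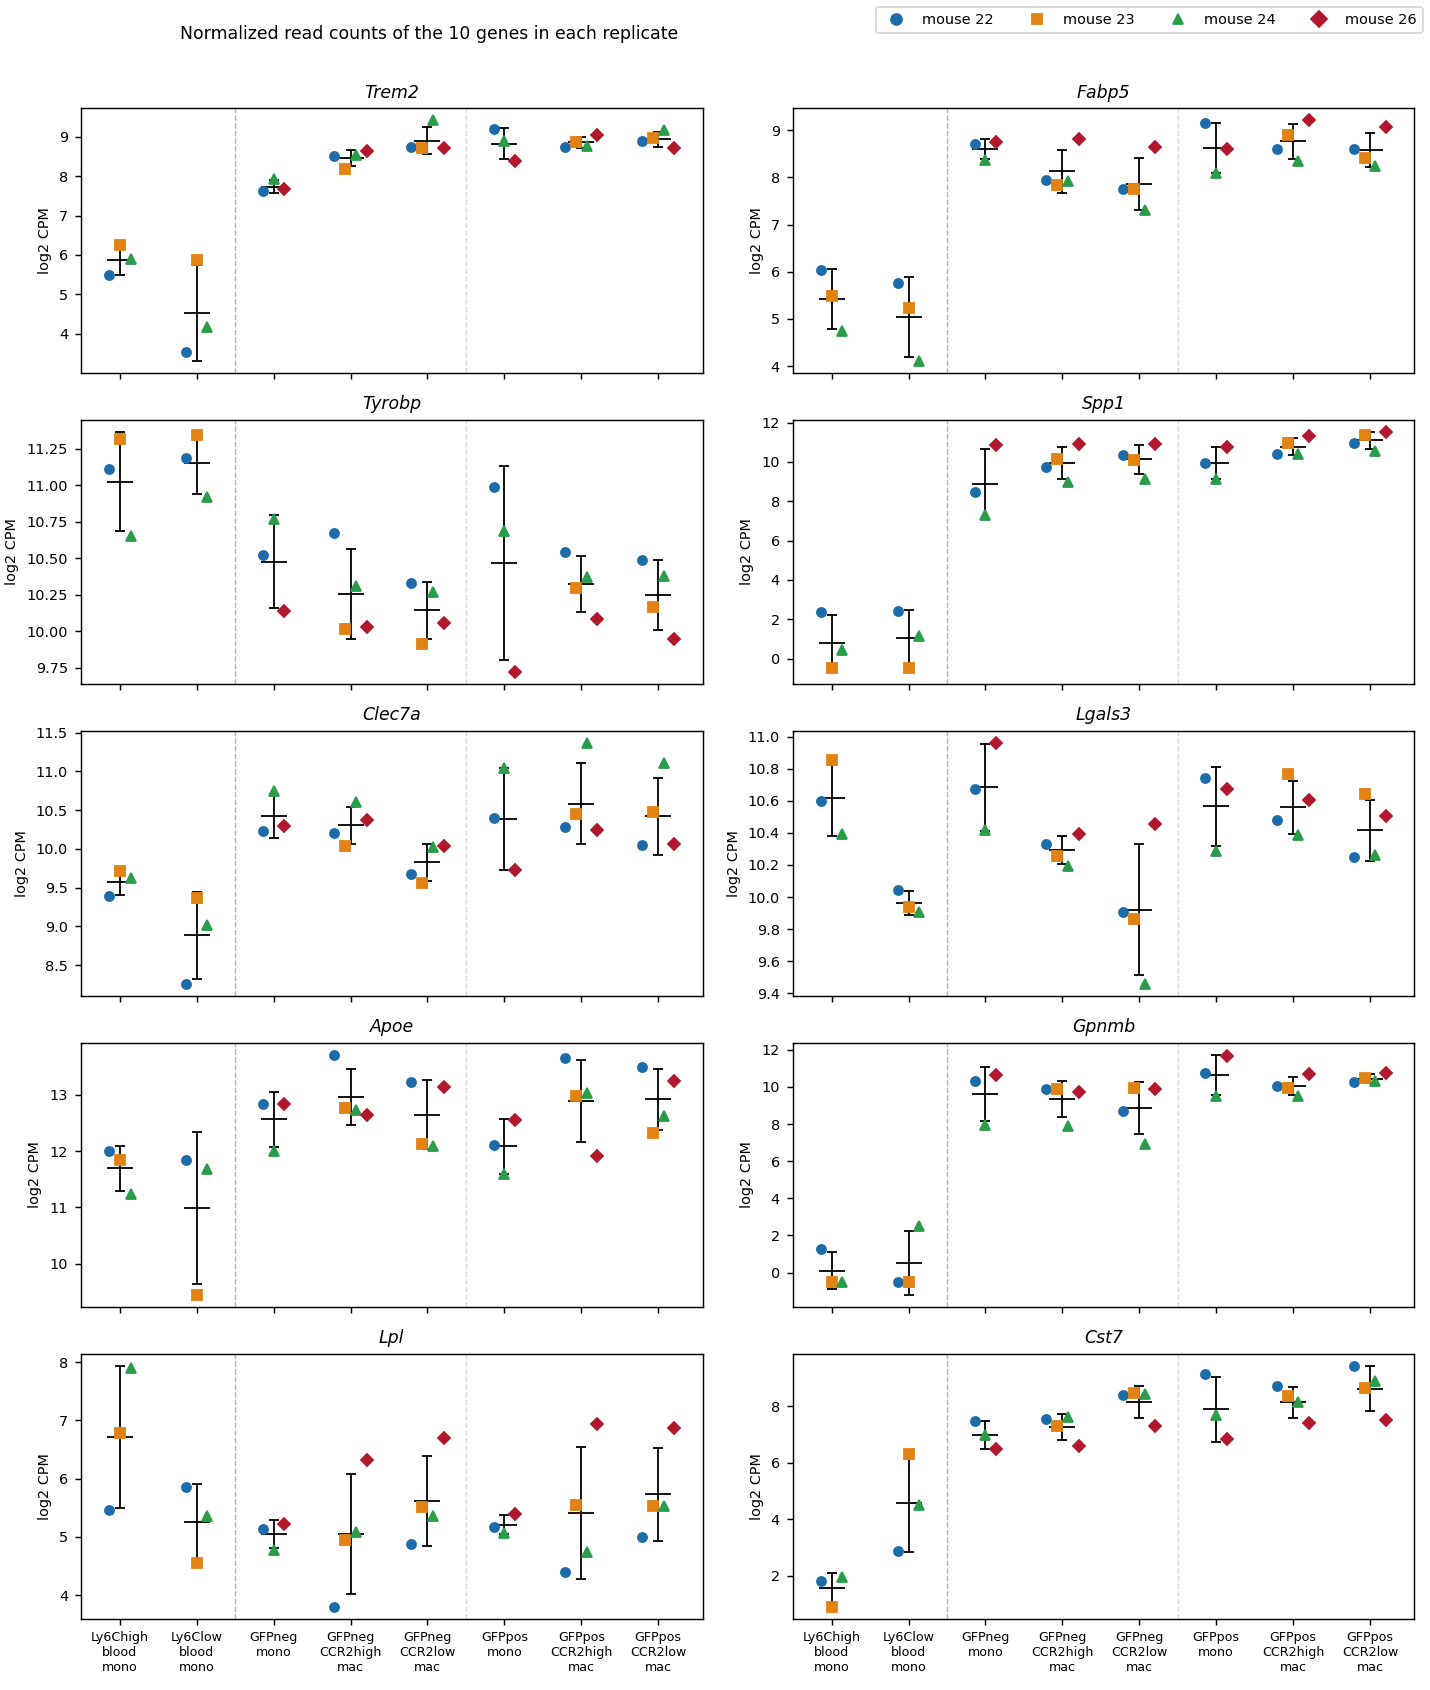
Normalized read counts (log2 CPM, with a prior count of 2) of the 10 genes in each replicate of the 8 populations. Symbols are mice, and black bars give the mean and SD of 3 or 4 mice. Every brain replicate lies above every blood replicate for Trem2, Fabp5, Spp1, Gpnmb and Cst7, and the share of all genes that separate in this way was not counted. The axes differ between panels.

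Trem2, the lipid-sensing receptor on chromosome 17 (48346401 to 48354147), was at 44.4, 74.98 and 58.3 CPM in Ly6Chigh monocytes. In Ly6Clow monocytes it was at 10.8, 57.8 and 17.2 CPM, with mouse 23 inside the range of the Ly6Chigh cells. It was at 196, 244 and 202 CPM in GFPneg glioma monocytes, which lie above every blood value. GFPneg CCR2high macrophages had 363, 288, 368 and 398 CPM, and GFPneg CCR2low macrophages had 425, 421, 684 and 423 CPM. The order glioma monocytes, CCR2high, CCR2low was free of overlap among the GFPneg groups, and its test within the brain is given further on. Against Ly6Chigh monocytes the log2 difference was 1.85 ± 0.37 (SE) in glioma monocytes, 2.58 ± 0.37 in CCR2high and 3.04 ± 0.38 in CCR2low macrophages (edgeR adjusted p = 0.000993, 1.26e-05 and 1.49e-06). Against Ly6Clow monocytes it was 2.90 ± 0.39, 3.62 ± 0.39 and 4.09 ± 0.40 (edgeR adjusted p = 6.27e-06, 1.96e-07 and 3.93e-08). Without the Ly6Clow cells of mouse 23 these 3 differences were 3.89, 4.61 and 5.09. Under spike-in scaling the calls against Ly6Chigh monocytes were lost in glioma monocytes (1.73) and CCR2high macrophages (2.65). The microglia marker sum moved in the same order, with medians of 2401 CPM in GFPneg glioma monocytes, 3298 in CCR2high and 5463 in CCR2low macrophages, and its part in the Trem2 levels was not tested.

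Tyrobp, the adaptor on chromosome 7 (30413760 to 30417585), did not follow its receptor. Blood monocytes had 2212, 2545 and 1606 CPM (Ly6Chigh) and 2329, 2592 and 1939 CPM (Ly6Clow). The level in GFPneg CCR2low macrophages was 1287, 964, 1236 and 1065 CPM, below every blood replicate. GFPneg glioma monocytes at 1468, 1746 and 1129 CPM and CCR2high macrophages at 1629.7, 1035, 1269 and 1047 CPM overlapped with the Ly6Chigh cells, whose lowest value came from mouse 24. The log2 difference of CCR2low macrophages was -0.90 ± 0.24 (SE) against Ly6Chigh (edgeR adjusted p = 0.00873), and spike-in scaling gave -0.88, which did not pass. Against Ly6Clow monocytes Tyrobp was -0.88 ± 0.24 in CCR2high (edgeR adjusted p = 0.01) and -1.01 ± 0.24 in CCR2low macrophages (edgeR adjusted p = 0.00346), but spike-in scaling turned the direction, to 1.02 and 0.77, which is below the median of all genes on that scale. The call in CCR2high macrophages against Ly6Chigh monocytes (-0.77 ± 0.24, edgeR adjusted p = 0.0266) was lost without mouse 23 or 26 of the CCR2high cells, at -0.73 in either case, and without mouse 23 of the Ly6Chigh cells, at -0.69. It was also lost under spike-in scaling (-0.62) and with the poor library of Ly6Clow mouse 23 in place (-0.75).

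Clec7a encodes Dectin-1, a receptor for fungal glucans that signals through SYK, and it lies on the minus strand of chromosome 6 (129461591 to 129472779). It was at 670.2, 842 and 792 CPM in Ly6Chigh and 306, 662 and 519 CPM in Ly6Clow monocytes, which did not overlap. In the brain, GFPneg glioma monocytes had 1202, 1715 and 1255 CPM, CCR2high macrophages 1182, 1049, 1552 and 1323 CPM and CCR2low macrophages 821, 756, 1044 and 1048 CPM. The first 2 groups lie above all blood replicates, and the CCR2low cells overlap with Ly6Chigh monocytes. Against Ly6Clow monocytes the log2 difference was 1.49 ± 0.34 (SE) in glioma monocytes (edgeR adjusted p = 0.00302) and 1.36 ± 0.33 in CCR2high macrophages (edgeR adjusted p = 0.00341). In CCR2low macrophages it was 0.89 ± 0.32 (edgeR adjusted p = 0.046), and this call was lost without Ly6Clow mouse 22 (0.65) or 24 (0.96) and without CCR2low mouse 22 (0.94), 24 (0.92) or 26 (0.84). It was also lost with the first library alone where a replicate had 2 (0.91).

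Apoe on chromosome 7 (19696109 to 19699188, minus strand) is the gene of apolipoprotein E. It was at 4089.7, 3652 and 2428 CPM in Ly6Chigh monocytes and 3684, 694 and 3289.8 CPM in Ly6Clow monocytes, where mouse 23 was far below the others. GFPneg glioma monocytes had 7349.6, 4110.1 and 7363 CPM, CCR2high macrophages 13448, 6992, 6787 and 6360.5 CPM and CCR2low macrophages 9563, 4498, 4389 and 9052 CPM. All 11 lie above the blood values, the lowest by a narrow margin, while GFPpos glioma monocytes reach down to 3082 CPM and GFPpos CCR2high macrophages to 3836 CPM and so overlap with blood. The log2 differences from Ly6Chigh monocytes were 0.89 ± 0.48, 1.31 ± 0.47 and 1.02 ± 0.46 (SE), and they did not pass (edgeR adjusted p = 0.27, 0.052 and 0.128). CCR2high macrophages did pass with DESeq2 or its size factors (1.35) and with the poor library of Ly6Clow mouse 23 in place (1.32). From Ly6Clow monocytes glioma monocytes differed by 1.30 ± 0.49 (edgeR adjusted p = 0.0645), which passed without Ly6Clow mouse 24, at 1.53. CCR2high macrophages differed by 1.72 ± 0.47 (edgeR adjusted p = 0.0102) and CCR2low macrophages by 1.43 ± 0.47 (edgeR adjusted p = 0.0284). Neither macrophage call held without Ly6Clow mouse 23, at 1.24 and 0.96. The CCR2low call was also lost without CCR2low mouse 22 (1.23) or 26 (1.26), under spike-in scaling (2.86) and with no filter on low counts (1.46). The library of the mouse 23 Ly6Clow cells that was left out held 6465 CPM of Apoe on total counts alone, while the 3 replicates used ran from 669 to 4019 CPM on that scale. With that library in place of its replacement the differences were 1.12 in CCR2high macrophages, still called, and 0.81 in CCR2low macrophages, not called. Astrocyte markers summed to 36.9 to 105 CPM in GFPneg glioma monocytes, 30.9 to 60.8 CPM in CCR2high and 72.6 to 87.0 CPM in CCR2low macrophages. In Ly6Chigh and Ly6Clow monocytes the sum reached at most 1.46 and 2.07 CPM, and its part in the Apoe levels was not tested.

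Lpl, lipoprotein lipase, which frees fatty acids from lipoprotein particles, lies on chromosome 8 (68880491 to 68907448). Ly6Chigh monocytes had 43.3, 109 and 237 CPM, a wide spread in which mouse 24 was the highest of all 28 replicates. Ly6Clow monocytes had 57.1, 22.7 and 40.2 CPM, and GFPneg glioma monocytes had 34.6, 26.8 and 36.8 CPM. Macrophages had 13.2, 30.3, 33.3 and 79.4 CPM (GFPneg CCR2high) and 28.6, 44.8, 40.2 and 103 CPM (GFPneg CCR2low), with mouse 26 on top in either group. Against Ly6Chigh monocytes the log2 differences were -1.99 ± 0.69, -1.73 ± 0.62 and -1.27 ± 0.62 (SE; edgeR adjusted p = 0.0555, 0.0542 and 0.161). Without Ly6Chigh mouse 22 the first 2 passed, at -2.48 and -2.23, and the second also passed without CCR2high mouse 26, at -2.39. Both passed with DESeq2 (-1.98 and -1.69) and with the second library alone where a replicate had 2 (-2.06 and -1.80). Against Ly6Clow monocytes they were -0.29 ± 0.68, -0.02 ± 0.63 and 0.43 ± 0.63, within the spread between replicates (lowest edgeR adjusted p = 0.669).

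Fabp5, a carrier of fatty acids inside the cell, lies on chromosome 3 (10012548 to 10016607), and a like-named gene, Fabp5l2, could share reads with it. Its level was 64.6, 43.9 and 26.1 CPM in Ly6Chigh and 53.8, 36.6 and 16.6 CPM in Ly6Clow monocytes. Among brain cells, GFPneg glioma monocytes had 415, 328 and 429.7 CPM, CCR2high macrophages 245, 229, 243 and 448 CPM and CCR2low macrophages 215, 214, 158 and 397 CPM. No brain replicate overlapped with blood, and glioma monocytes had the highest mean of the 3. The log2 difference from Ly6Chigh monocytes was 3.13 ± 0.43 (SE), 2.71 ± 0.41 and 2.46 ± 0.41 (edgeR adjusted p = 9.31e-06, 2.67e-05 and 6.77e-05). From Ly6Clow monocytes it was 3.46 ± 0.44, 3.04 ± 0.42 and 2.79 ± 0.41 (edgeR adjusted p = 2.35e-06, 6.85e-06 and 1.72e-05). Under spike-in scaling the 3 calls against Ly6Chigh monocytes were lost, at 3.23, 2.94 and 2.63.

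Spp1 encodes osteopontin, a secreted ligand of integrins and CD44, and lies on chromosome 5 (104435118 to 104441050), where it overlaps with Gm42793 on the same strand. It was nearly absent from blood, with 8, 0 and 3 reads in Ly6Chigh and 10, 0 and 5 reads in Ly6Clow monocytes. GFPneg glioma monocytes had 358, 156 and 1826 CPM, CCR2high macrophages 843, 1150.0, 507 and 1927 CPM and CCR2low macrophages 1302, 1103, 553 and 1940.2 CPM. Mouse 26 was the highest and mouse 24 the lowest in each of these groups. Over the pooled counts, CCR2low macrophages had 886 times the Ly6Chigh level (95% interval 495 to 1770, counting error only) and 636 times the Ly6Clow level (385 to 1140). Glioma monocytes had 533 times the Ly6Chigh level (298 to 1070). The fitted log2 differences ran from 8.63 to 9.66 (lowest edgeR adjusted p = 2.84e-07), and they depend on the prior count. Without glioma monocytes of mouse 26 the fitted values of that group were 7.37 and 7.05 in place of 9.01 and 8.63, and blood mice 22 and 24 of Ly6Chigh and 22 and 23 of Ly6Clow also moved fitted values by over 1.5 times, within a range of 8.03 to 11.22. With the mouse as a block the glioma monocyte values were 8.13 and 7.78. All 6 calls held in each of these fits.

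Gpnmb encodes a transmembrane glycoprotein of lysosomes and melanosomes, on chromosome 6 (49036546 to 49070929). Ly6Chigh monocytes had 3, 0 and 0 reads and Ly6Clow monocytes 0, 0 and 17 reads, so that 1 mouse of each carried all of them. GFPneg glioma monocytes had 1259, 250.02 and 1591 CPM, CCR2high macrophages 945, 949, 236 and 842 CPM and CCR2low macrophages 413, 972, 122 and 949.8 CPM. Mouse 24 was the lowest in each, and still lay far above the blood. The pooled count ratio to Ly6Chigh monocytes was 2770 (95% interval 948 to 13500, counting error only) in glioma monocytes, 2210 (755 to 10700) in CCR2high and 1890 (647 to 9170) in CCR2low macrophages. To Ly6Clow monocytes it was 479 (299 to 823), 381 (238 to 654) and 327 (204 to 561). These intervals leave out the spread between mice. All 6 differences passed the edgeR test (adjusted p from 6.9e-07 to 2.45e-06). The fitted log2 values, from 8.28 to 11.21, rise to between 13.72 and 14.52 without Ly6Chigh mouse 22 or Ly6Clow mouse 24, when blood holds no count. Without Ly6Chigh mouse 24 they were 10.16, 9.68 and 9.41, without Ly6Clow mouse 23 down to 7.70, and with the mouse as a block 8.36, 7.96 and 7.57 against Ly6Clow monocytes.

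Cst7, which encodes cystatin F, an inhibitor of lysosomal cysteine proteases, lies on chromosome 2 (150570415 to 150578944). It was at 2.81, 1.17 and 3.14 CPM in Ly6Chigh monocytes, and at 6.60, 79.4 and 22.2 CPM in Ly6Clow monocytes. GFPneg glioma monocytes had 177, 125 and 88.4 CPM, CCR2high macrophages 185, 158, 194 and 95.6 CPM and CCR2low macrophages 333, 353, 341 and 156 CPM. The brain values lie above the blood values, with the closest approach between mouse 26 of the glioma monocytes and mouse 23 of the Ly6Clow monocytes. From Ly6Chigh monocytes the log2 difference was 5.67 ± 0.79 (SE), 5.95 ± 0.78 and 6.85 ± 0.80 (edgeR adjusted p = 1.02e-05, 3.68e-06 and 6.45e-07). From Ly6Clow monocytes it was 1.84 ± 0.62, 2.12 ± 0.60 and 3.03 ± 0.63 (edgeR adjusted p = 0.0383, 0.0122 and 0.000924). Without Ly6Clow mouse 23 these 3 were 3.11, 3.38 and 4.30. The glioma monocyte call was lost without glioma monocytes of mouse 22 (1.61) or 24 (1.91) and without Ly6Clow mouse 22 (1.40) or 24 (1.64), and also with no filter on low counts (1.90). T and NK cells also express Cst7, and their marker sum was 528 to 1182 CPM in GFPneg glioma monocytes and 1032 to 1942 CPM in GFPneg CCR2low macrophages; its part in the Cst7 levels was not tested.

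Lgals3 encodes galectin-3, a lectin that binds damaged lysosomes and modified lipoproteins, and lies on chromosome 14 (47367751 to 47386160). Unlike Spp1 and Gpnmb, it was abundant in blood, at 1553, 1849 and 1341 CPM in Ly6Chigh and 1055, 979 and 958 CPM in Ly6Clow monocytes. GFPneg glioma monocytes had 1634, 1365 and 1989 CPM, CCR2high macrophages 1287, 1224, 1171 and 1346 CPM and CCR2low macrophages 957, 933, 703 and 1401 CPM. The log2 difference of CCR2low macrophages from Ly6Clow monocytes was 0.00 ± 0.20 (SE) and that of glioma from Ly6Chigh monocytes was 0.07 ± 0.21, with overlapping values in either case. Lgals3 was lower in CCR2low macrophages than in Ly6Chigh monocytes, with a log2 difference of -0.66 ± 0.20 (edgeR adjusted p = 0.0167). That call was lost without Ly6Chigh mouse 23 (-0.60) or CCR2low mouse 24 (-0.54), and under spike-in scaling (-0.60). It was higher in glioma than in Ly6Clow monocytes by 0.74 ± 0.21 (edgeR adjusted p = 0.0161), a call lost without glioma monocytes of mouse 26 (0.62) and under spike-in scaling (2.46).

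Between the blood populations, 1 of the 10 genes passed the test. Cst7 was lower in Ly6Chigh than in Ly6Clow monocytes, with a log2 difference of -3.82 ± 0.75 (SE, edgeR adjusted p = 0.00284), where 3.65% of all genes were called lower and 1.96% higher. The values did not overlap, but mouse 23 of the Ly6Clow cells was the highest, and without it the difference was -2.48 and passed the test. With the poor library of mouse 23 in place of its replacement it was -1.995 and did not pass. Ly6Clow monocytes also held more T and NK cell markers (914 to 1504 CPM, led by Nkg7) than Ly6Chigh monocytes (19.3 to 175 CPM), and more dendritic cell markers (578 to 1895 CPM against 100.2 to 219 CPM, led by Cd209a). The part of either in the Cst7 difference was not tested. No gene of the 10 was called higher, although Lgals3 (0.67 ± 0.21, edgeR adjusted p = 0.0617), Trem2 (1.05 ± 0.37, edgeR adjusted p = 0.0966) and Lpl (1.70 ± 0.68, edgeR adjusted p = 0.138) were under 0.05 before adjustment. DESeq2 called Lgals3 and Trem2 higher as well as Cst7 lower, with 517 of the 11566 genes called higher and 858 lower. With the mouse as a block Lgals3 was higher by 0.65, with 3.15% of all genes called higher. Trem2 passed without Ly6Clow mouse 23, at 2.09, and Lgals3 without Ly6Clow mouse 24, at 0.71. Scaling to the spike-in RNAs moved the median of all genes from 0.02 to 1.69, and Cst7 at -1.11 then did not pass.

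Within the brain the edgeR test called none of the 10 in any of the 6 comparisons of glioma monocytes, CCR2high and CCR2low macrophages. Among GFPneg cells, 0.182% of all genes were called between CCR2high macrophages and glioma monocytes, 1.21% between CCR2low macrophages and glioma monocytes, and 0% between the macrophages. Among GFPpos cells the shares were 0.0173%, 0.164% and 0%.

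Trem2, Lgals3 and Cst7 came closest, in GFPneg CCR2low macrophages against glioma monocytes. There 3 genes were under an unadjusted p of 0.05. The difference of Trem2 was 1.19 ± 0.35 (SE, edgeR adjusted p = 0.107), and the groups did not overlap. The difference of Lgals3 was -0.74 ± 0.20 (edgeR adjusted p = 0.0634), and that of Cst7 was 1.19 ± 0.57 (edgeR adjusted p = 0.585). DESeq2 called Trem2 and Lgals3, with 2.37% of all genes called in either direction. With the mouse as a block edgeR called Lgals3 lower, at -0.77, with 2.46% of all genes called in either direction. Without CCR2low mouse 26, whose Lgals3 level was the highest of its group, Lgals3 passed at -0.94. In a fit of these 2 populations alone, Trem2 passed at 1.20. Between CCR2high macrophages and glioma monocytes 1 gene, Trem2, was under 0.05 before adjustment (0.73 ± 0.34, edgeR adjusted p = 0.889), and none in the other 4 comparisons; DESeq2 called none in these 5.

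The uptake of tumor membrane was asked next, with GFPpos against GFPneg cells. No gene of the 10 passed edgeR's test in glioma monocytes, CCR2high or CCR2low macrophages, nor in the mean over the 3, where 0% of all genes were called in each. Before adjustment 1 gene was under 0.05 in glioma monocytes (Trem2, 1.12 ± 0.36, edgeR adjusted p = 0.639), none in CCR2high and 2 in CCR2low macrophages (Clec7a, 0.65 ± 0.29, and Lgals3, 0.46 ± 0.18). In the mean over the 3 populations 4 genes were: Trem2 (0.51), Fabp5 (0.45), Gpnmb (0.89) and Cst7 (0.88), where spike-in scaling gave 0.01, -0.02, 0.60 and 0.18. DESeq2 called none of the 10 in these 4 comparisons. The 3 differences between these differences gave 30 tests over the 10 genes, none called by edgeR or DESeq2, with 0% of all genes called; 2 of them, Trem2 and Lgals3 in CCR2low macrophages against glioma monocytes, were under 0.05 before adjustment.

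In cells of the same mouse, compared after TMM scaling, GFPpos exceeded GFPneg cells in 11 of 11 pairs for Gpnmb and Cst7, which 0.432% of all genes did, and in 10 of 11 for Spp1 and Lpl, while under spike-in scaling the fitted difference of all 10 genes in glioma monocytes was below 0. All or all but 1 of the pairs were higher for 1.88% of all genes. The 11 pairs come from 4 mice and are not independent. The widest gap of Gpnmb was in CCR2low macrophages of mouse 24, at 122 CPM in GFPneg and 1263 CPM in GFPpos cells. The other mice of that population had 413 and 1216, 972 and 1413, and 949.8 and 1740.3 CPM (mice 22, 23 and 26). The narrowest was in CCR2high macrophages of mouse 23, at 949 and 1001 CPM. Cst7 had 177 and 561 CPM in glioma monocytes of mouse 22, its widest pair, and 353 and 403 CPM in CCR2low macrophages of mouse 23, its narrowest. For Spp1 the single pair in the other direction was that of glioma monocytes of mouse 26, at 1739 against 1826 CPM. Median log2 differences over the pairs were 1.001 for Gpnmb, 0.79 for Spp1, 0.71 for Cst7 and 0.45 for Fabp5. In glioma monocytes the fitted differences of Gpnmb (0.88), Cst7 (1.18), Spp1 (0.49) and Trem2 (1.12) turned to -0.14, -0.89, -0.84 and -0.55 when counts were scaled to the spike-in RNAs, which moved the median of all genes from 0.07 to -1.37. Spike-in RNA held 3.59%, 5.16% and 0.61% of the counts in GFPpos glioma monocytes of mice 22, 24 and 26. In the GFPneg cells it held 0.60%, 0.74% and 0.32%. The 2 libraries of the mouse 22 GFPpos cells differed, at 8.68% and 1.29%. The part of these shares in the change of sign was not tested. In CCR2high macrophages the differences of these 4 genes were positive on either scale, with 0.45, 0.58, 0.49 and 0.12 under spike-in scaling, and in CCR2low macrophages with 1.47, 0.84, 1.05 and 0.45.

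Under TMM scaling, Trem2, Clec7a, Fabp5 and Lgals3 were higher in GFPpos cells in 9 of 11 pairs and Tyrobp in 7 of 11, while spike-in scaling put all of them below 0 in glioma monocytes and turned the fitted difference in CCR2high macrophages of Clec7a from 0.35 to -0.10 and of Tyrobp from 0.05 to -0.27. The share of all genes higher in 9 or in 7 of the 11 pairs was not counted. Apoe was higher in GFPpos cells in 6 of 11 pairs, and its sign went with the population: 0 of 3 pairs of glioma monocytes, 2 of 4 of CCR2high and 4 of 4 of CCR2low macrophages. Glioma and neural progenitor markers were also higher in GFPpos cells in 9 of 11 pairs. In CCR2low macrophages of mouse 24 their sum was 60.7 CPM in GFPpos and 3.24 CPM in GFPneg cells, and in CCR2high macrophages of mice 24 and 26, where it was lower in GFPpos cells (6.03 against 7.35 and 51.9 against 66.1 CPM), Gpnmb still was higher. The part of tumor RNA in these differences was not tested. The T and NK cell marker sum was lower in GFPpos than in GFPneg CCR2low macrophages (321 to 846 against 1032 to 1942 CPM). Its median was also lower in GFPpos CCR2high macrophages (679 against 931 CPM) but higher in GFPpos glioma monocytes (1261 against 685 CPM), with overlapping ranges. Cst7 was higher in GFPpos cells in 4 of 4 pairs of either macrophage population and in 3 of 3 of glioma monocytes. The part of T and NK cells in these Cst7 differences was not tested. The microglia sum was 3138 to 5089 CPM in GFPpos and 2128 to 3602 CPM in GFPneg glioma monocytes, and its part in the Trem2 levels there was not tested.

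The GFPpos replicates otherwise covered these ranges. Among the receptors, Trem2 lay at 337 to 583 CPM in glioma monocytes, 431 to 528 CPM in CCR2high and 422 to 572 CPM in CCR2low macrophages. For Clec7a the ranges were 851 to 2109, 1217 to 2634 and 1056 to 2206 CPM, and for Tyrobp 843 to 2029.9, 1086 to 1491 and 987 to 1436 CPM. These 3 genes thus overlapped between all GFPpos populations. Of the lipid genes, Apoe had 3082 to 6046, 3836 to 12981 and 5138 to 11541 CPM, Fabp5 273 to 567, 324 to 591 and 303 to 536 CPM, and Lpl 32.7 to 41.3, 20.4 to 122 and 31.4 to 117 CPM. Lgals3 had 1247 to 1709, 1339 to 1738 and 1219 to 1595 CPM.

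**Figure D4:**
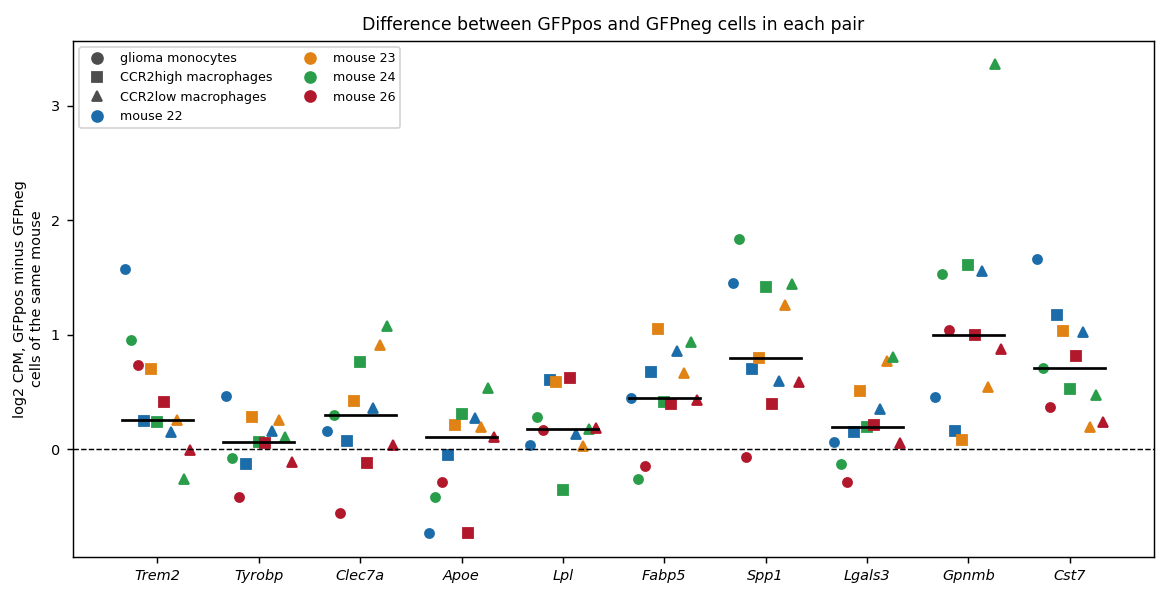
Difference in log2 CPM between GFPpos and GFPneg cells of the same mouse, in each of 11 pairs (symbols are populations, colors are mice) for the 10 genes; the black bar is the median and the dashed line is 0. All pairs lie above 0 for Gpnmb and Cst7 under TMM scaling, though in glioma monocytes their fitted difference was below 0 under spike-in scaling, and the pairs of Apoe and Tyrobp lie on both sides of it.

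For several genes the same mouse was the highest or the lowest in most brain populations. Spp1 and Lpl were the highest in mouse 26 in 6 of 6 brain populations, and Spp1 was the lowest in mouse 24 in 6 of 6. Cst7 was the lowest in mouse 26 in 6 of 6. In GFPpos CCR2low macrophages, for example, in the order of mice 22, 23, 24 and 26, Cst7 was at 678, 403, 473 and 183 CPM, Spp1 at 1967, 2644, 1500.4 and 2918 CPM and Lpl at 31.4, 45.6, 45.4 and 117 CPM. Clec7a was the highest in mouse 24 in 5 of 6, and Fabp5, Lgals3 and Gpnmb were the lowest there in 5 of 6. Tyrobp was the highest in mouse 22 in 5 of 6. Mouse 23 was present in 4 of the 6 brain populations. The share of all genes with the same highest or lowest mouse in so many populations was not counted. Each mouse had its own tumor and dissection, the study used mice of both sexes, and these cannot be told apart.

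**Figure D5:**
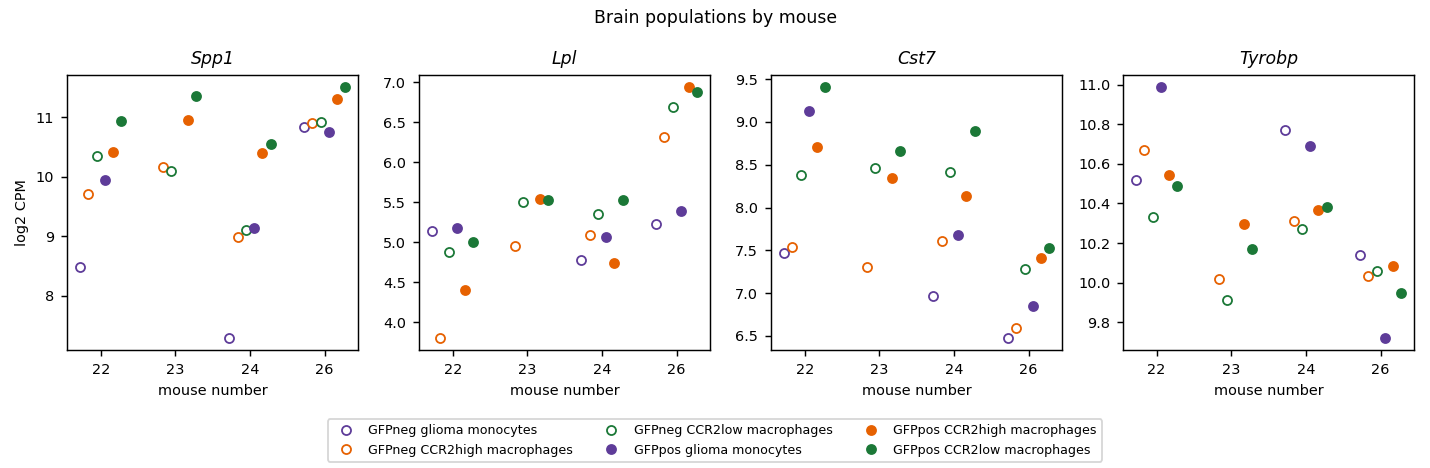
Normalized read counts (log2 CPM) of Spp1, Lpl, Cst7 and Tyrobp in the 22 brain replicates by mouse number. Each point is 1 population, open for GFPneg and filled for GFPpos cells, and mouse 23 has no glioma monocytes here. Mouse 26 holds the highest Spp1 and Lpl and the lowest Cst7 of each population, and the share of all genes with such an order was not counted.

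Over the 22 brain replicates, which share mice, the members did not form 1 block. As a description, the highest Pearson correlations of log2 CPM among the 45 pairs were 0.83 for Fabp5 and Lgals3, 0.71 for Lgals3 and Gpnmb, 0.68 for Fabp5 and Gpnmb and 0.66 for Trem2 and Cst7. After taking out the mean of each mouse they were 0.79, 0.60, 0.54 and 0.83, and other pairs came up: Clec7a and Lgals3 at 0.79 (from 0.21), Spp1 and Cst7 at 0.76 (from 0.13) and Clec7a and Fabp5 at 0.74 (from 0.11). Trem2 and its adaptor Tyrobp had 0.06. The lowest value, -0.57 for Tyrobp and Lpl, was 0.04 within mice.

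Genes outside the list with the most similar pattern to each member were found among 8070 genes with at least 10 CPM. Trem2 was closest to Rnase4 (Pearson r = 0.92) and to the complement gene C1qa (0.89). Tyrobp was closest to Fcer1g (0.95), the gene of another signalling adaptor, and to Lgals9 (0.94). Spp1 was closest to Pdpn (0.93) and Pf4 (0.92), Gpnmb to Trip6 (0.92) and Gfpt2 (0.92), and Cst7 to Cxcl13 (0.86) and H2-M2 (0.85). For the lipid genes the closest were Mfsd1 (0.88) and Scarb2 (0.80) for Apoe, Hmox1 (0.82) and Nceh1 (0.79) for Fabp5, and Sepp1 (0.82) and Larp4 (0.81) for Lpl. Lgals3 was closest to Apoc2 (0.87) and Tubb6 (0.82), and Clec7a to Sat1 (0.73) and Ifi44 (0.69).

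Most other genes of the disease-associated state were also higher in the brain. Of 25 further disease-associated microglia genes 24 were measured, and 16 to 18 of them were called higher and 0 or 1 lower in each of the 6 comparisons of brain with blood, with a median log2 difference between 1.78 and 2.19. Of all genes tested, 11.1% to 15% were called higher and 2.68% to 8.39% lower in these comparisons, the background for this and the following lists. Ctsd, a lysosomal protease, was at 672 ± 112 CPM (SD, n = 3) in Ly6Chigh monocytes and 8716 ± 1290 CPM (SD, n = 4) in GFPneg CCR2low macrophages, a log2 difference of 3.70 ± 0.25 (SE, edgeR adjusted p = 6.72e-11). The ferritin chain Fth1 went from 2392 to 7185 CPM, the protease Ctsb from 3529 to 6539.7 CPM and B2m from 3164 to 6284 CPM, all called higher. Against Ly6Clow monocytes Fth1 (1.67) and Ctsb (0.69) were also called higher, but B2m was not (0.105, edgeR adjusted p = 0.802). Serpine2, a secreted protease inhibitor, and the adhesion molecule Cadm1 had no count in blood, and were at 244 and 111 CPM in the CCR2low macrophages, at least 672-fold and 305-fold above the level of 3 counts over the 3 Ly6Chigh replicates.

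Among 15 genes that signal below TREM2, DAP12 and Dectin-1, 0 to 2 were called higher and 0 to 5 lower in the 6 comparisons, beside 11.1% to 15% and 2.68% to 8.39% of all genes. None was called in glioma monocytes against Ly6Chigh monocytes, and 5 were lower and 0 higher in CCR2low macrophages, with a median of -0.91 beside 0.17 for all genes. Syk, the kinase recruited by DAP12, went from 307 to 86.8 CPM, a log2 difference of -1.83 ± 0.38 (SE, edgeR adjusted p = 0.000981). The phospholipase gene Plcg2 went from 539 to 137 CPM, the kinase gene Prkcd from 1160 to 438 CPM and the SRC family kinase Lyn from 1072 to 516 CPM, all called lower. Ptpn6, a phosphatase (-0.69 ± 0.27, edgeR adjusted p = 0.07), and Vav1 (0.12 ± 0.28) were not called. Against Ly6Clow monocytes the falls of Syk (-0.42, edgeR adjusted p = 0.465), Plcg2 (-1.065, 0.0719) and Prkcd (-0.60, 0.164) in CCR2low macrophages were not called. There Lyn was called lower (-0.61, edgeR adjusted p = 0.0376) and Vav1 higher (0.94, 0.0181), and Ptpn6 was not called (-0.48).

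Of 23 genes of lipid droplets, cholesterol and the LXR response, 3 to 5 were called higher and 0 to 5 lower in the 6 comparisons, beside 11.1% to 15% and 2.68% to 8.39% of all genes, so that the count of higher genes was near the background. In CCR2low macrophages against Ly6Chigh monocytes 3 were higher and 4 lower. Acp5, a phosphatase, went from 37.7 to 581 CPM (3.95 ± 0.51, SE, edgeR adjusted p = 2.25e-06). Ch25h, the cholesterol 25-hydroxylase, had no count in blood and was at 56.9 CPM, at least 157-fold above the level of 3 counts. Soat1, which esterifies cholesterol, was lower (516 to 289 CPM, -0.84 ± 0.28, edgeR adjusted p = 0.0319). The lipid droplet coat gene Plin2 had a log2 difference of -0.71 ± 0.51 and Npc2, a lysosomal cholesterol carrier, one of 0.07 ± 0.20. Neither was called against Ly6Chigh monocytes. Against Ly6Clow monocytes Npc2 was called higher, at 0.86 (edgeR adjusted p = 0.00345), while Soat1 (0.24) and Plin2 (-0.90) were not called.

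Of 14 lipoprotein and osteopontin receptors and LPL cofactors, 12 were tested, and 2 or 3 were called higher and 2 to 4 lower in the 6 comparisons, beside 11.1% to 15% and 2.68% to 8.39% of all genes. Cd44, an osteopontin receptor, went from 699 ± 151 CPM (SD, n = 3) in Ly6Chigh monocytes to 182 ± 52.5 CPM (SD, n = 4) in CCR2low macrophages (-1.94 ± 0.28, SE, edgeR adjusted p = 1.26e-05). Scarb1, a receptor for high-density lipoprotein, was lower, with a log2 difference of -2.99 ± 0.42 (SE, edgeR adjusted p = 8.39e-06). The APOE receptor Lrp1 was at -1.32 ± 0.82 and was not called. The integrin gene Itga9 and the APOE receptor Lrp8 had no count in blood and were at 10.6 and 3.12 CPM, at least 29.2-fold and 8.6-fold above the level of 3 counts.

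Of 13 transcription factor genes of macrophages and lysosomes, 5 or 6 were called higher and 0 or 1 lower in each comparison, beside 11.1% to 15% and 2.68% to 8.39% of all genes. Bhlhe40 rose from 64.0 to 522 CPM in CCR2low macrophages against Ly6Chigh monocytes (3.03 ± 0.42, SE, edgeR adjusted p = 6.08e-06). Its relative Bhlhe41 had no count in blood and was at 6.62 CPM, at least 18.2-fold above the level of 3 counts. In the same comparison Spi1, which encodes PU.1, had a log2 difference of -1.003 ± 0.54, Irf8 of 0.29 ± 0.39 and Tfe3 of -0.73 ± 0.34. None of the 3 was called there. Against Ly6Clow monocytes Irf8 was called higher in CCR2low macrophages, at 1.98 (edgeR adjusted p = 0.000979), while Spi1 and Tfe3 were not called.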

How the data were processed

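RNA of sorted cells was amplified from poly-A ends with spike-in RNAs, and the authors used STAR for alignment (mm10), Picard (version 1.8.4 per the submitters' processing notes) to drop duplicate reads, and htseq-count (mode intersection-strict, Gencode GRCm38.p3) to count them. The strand setting is not given in the sources used here. The authors deposited whole-number counts per gene, without normalization. Reads carry no molecular identifiers, so counting intervals cover counting error only. Of each replicate's reads 6.28% to 17.4% lay on no gene and 1.58% to 1.9% on overlapping genes, and these were kept out.

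Groups came from the sample labels. By the study's rule, a library with fewer than 6000 genes of 5 or more reads was left out (1 of 30), and the 2 libraries of GFPpos glioma monocytes of mouse 22 were summed, which left 28 replicates. Counts were fitted in 1 edgeR model over the 8 populations (version 4.0.16, R 4.3.3; TMM scaling, filterByExpr, robust quasi-likelihood test, Benjamini-Hochberg adjustment), without a block. DESeq2 (version 1.42.0), other scalings and left-out replicates were alternatives. Log2 CPM used a prior count of 2. Populations with the same mouse number come from the same animal, and their deviations from the group means had a median correlation of 0.136 (86 pairs; -0.03 over 256 pairs of different mice). Gene lengths came from GENCODE annotation on the same build. The script was tested on simulated counts.

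The members and all lists were chosen with earlier results of these data known. All 10 members are named. Of each other list the 4 genes with the highest mean CPM were named, with the 2 called genes of largest change in GFPneg CCR2low macrophages against Ly6Chigh monocytes; for each member the 2 genes of highest correlation were named. A gene that this rule names is not reported here.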

Additional observations from a re-analysis of the deposited data

Results flagged for a closer look

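In groups of 4 replicates, 5 values of the members stood apart from the other 3 by Dixon's test, of 40 groups tested, and chance gives about 1 in 20. Trem2 was at 684.05 CPM in GFPneg CCR2low macrophages of mouse 24, with the others from 421 to 425 CPM. Apoe was at 13447.88 CPM in GFPneg CCR2high macrophages of mouse 22, with the others from 6360.5 to 6992 CPM. In the same population Fabp5 was at 448.28 CPM in mouse 26 and Gpnmb at 236.05 CPM in mouse 24. Cst7 was at 155.58 CPM in GFPneg CCR2low macrophages of mouse 26, with the others from 333 to 353 CPM.

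Apoe was lower in GFPpos than in GFPneg glioma monocytes in all 3 mice and higher in GFPpos than in GFPneg CCR2low macrophages in all 4. The difference between these effects was 0.73 on the log2 scale, and edgeR's test of that difference did not pass (adjusted p = 1).

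The library of Ly6Clow monocytes of mouse 23 that was left out held 4373.09 CPM of Tyrobp and 6464.85 CPM of Apoe, above the highest values of 2541.03 and 4019.22 CPM in the 3 Ly6Clow replicates used, all on total counts. It held no read of Trem2, Lpl, Fabp5, Spp1, Gpnmb or Cst7.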

How the results depend on the processing

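The number of members called is given here under each alternative that moved it by over 1.5 times. For Ly6Chigh against Ly6Clow monocytes, 1 gene as reported, it was 0 with spike-in scaling and with only the compared populations, 3 with DESeq2, 2 with library sizes from the tested genes (added after seeing the data), the replicate block, the first or second library alone and the poor library in place, and 1 to 2 when 1 replicate was left out. Against Ly6Chigh monocytes, spike-in scaling gave 3 in glioma monocytes, 3 in CCR2high and 4 in CCR2low macrophages, in place of 5, 6 and 7. Calls over all 11566 genes fell as well, to 390, 467 and 504 higher and 8, 56 and 87 lower. With only the compared populations, glioma monocytes against Ly6Clow had 3 in place of 7 and CCR2high macrophages 5 in place of 8. The shares of all genes in those fits are not given, so this fall cannot be set against that of genes in general. GFPneg CCR2low macrophages against glioma monocytes, 0 as reported, had 2 with DESeq2, 1 with the replicate block, the second library alone or only the compared populations, and 0 to 1 with 1 replicate left out. In the other 5 comparisons within the brain and the 4 of GFPpos with GFPneg cells no listed alternative called a member. Tyrobp reversed under spike-in scaling against Ly6Clow monocytes, to 1.02 in CCR2high and 0.77 in CCR2low macrophages. The cause of these changes was not tested, except that fits of only the compared populations hold fewer samples. The replicate block changed no other call than those given beside the results.

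Leave-one-out fits of groups of 3 leave 2 replicates. Spp1, Gpnmb and Cst7 rest on few reads in Ly6Chigh monocytes, and a p that misses the threshold does not show equal levels at this depth and number of mice.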
